A study of Mus musculus with 25 samples.

Results

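The genes of serine synthesis and of the integrated stress response were followed in microglia sorted from mice that lack Bin1 in neurons. The list holds 10 genes of the 43411 in the table: Psat1, Phgdh, Psph, Shmt2, Mthfd2, Asns, Atf4, Ddit3, Trib3 and Chac1. The list was selected on the level of Psat1, which was higher in homozygous mice in these same libraries, and the other 9 genes were added as known relatives of it in the response driven by the transcription factor ATF4. Differences of Psat1 between homozygous mice and the other genotypes, or among groups of homozygous mice, are therefore given as a description, without a test.

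Microglia (CD11b+, CD45 medium) were sorted from brains of 3-month-old males and females and their RNA was sequenced. Homo-cKO mice were Bin1flox/flox Thy1-Cre+ (n = 10, 5 females and 5 males), Het-cKO mice were Bin1flox/wt Thy1-Cre+ (n = 7, 4 females and 3 males), and controls, called WT here, were Bin1flox/wt Thy1-Cre- (n = 6, 2 females and 4 males). The WT controls therefore carried a floxed allele too, and all groups came from crosses of the strains B6.129S6-Bin1tm2Gcp/J and FVB/N-Tg(Thy1-cre)1Vln/J. The Thy1 promoter drives Cre in neurons, so the sorted cells were not the cells in which recombination was intended. Each mouse is named below by its genotype, F or M, and its replicate number. Of 25 labelled mice 23 had a column of values, and 1 WT and 1 Het-cKO mouse were not analysed here.

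Libraries held 10812969 to 16734846 counts. Bin1 itself was at 699 ± 88.3 CPM (counts scaled to the size of the library; mean ± SD, n = 6) in WT, 692 ± 40.6 (n = 7) in Het-cKO and 481 ± 130 (n = 10) in Homo-cKO microglia. All WT and Het-cKO mice had animal numbers in the lowest of 3 separate number ranges, whereas 6 Homo-cKO mice were numbered in the middle range and 4 (F4, F5, M4 and M5) in the highest. Genotype and number range thus cannot be told apart between homozygous mice and the rest. In addition, 4 Homo-cKO mice of the middle range (F1, F2, M1 and M2) had 824 to 1460 CPM of Fos, an immediate-early gene, against 0.0677 to 7 CPM in the other 19 mice. Of 12 microglial markers fixed for this work, 8 were lower in Homo-cKO than in WT mice and none was higher. Their summed level was 68600 to 98200 CPM in WT and 57900 to 68400 CPM in Homo-cKO mice. Astrocyte markers, which matter here because astrocytes make much of the brain's serine, summed to 236 to 269 CPM in WT and 231 to 311 CPM in Homo-cKO mice, with 1 of 4 tested markers (Aldoc) lower. Slc1a3 alone was at 245 ± 13.3 CPM in WT and 270 ± 26.4 CPM in Homo-cKO mice, so it made up most of that sum. Gfap, Slc1a2 and Aldoc averaged 1.2, 1.66 and 6.45 CPM in WT and 0.862, 1.16 and 2.28 CPM in Homo-cKO mice. These shifts' part in the results below was not tested unless a value is given.

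Serine is made from a glycolytic intermediate in 3 steps. Phgdh encodes the dehydrogenase of the first and limiting step, Psat1 the aminotransferase of the second, and Psph the phosphatase that releases serine. Shmt2 then moves a carbon unit from serine to folate inside mitochondria, giving glycine, and Mthfd2 oxidises that folate unit. When amino acids run short or unfolded proteins, viral RNA or heme loss activate a kinase of the translation factor eIF2alpha, most translation slows while ATF4 is translated more. ATF4 protein then raises genes of amino acid supply, among them Asns, the asparagine synthetase, and stress genes such as Ddit3, which encodes the transcription factor CHOP, Trib3, a pseudokinase that restrains ATF4, and Chac1, which degrades glutathione. Because ATF4 is controlled largely by translation, its mRNA level is only a part of its activity.

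Stretches upstream of the RefSeq start sites (GRCm38.p6) are shown for 4 members, with motif matches in capitals. In Asns and Chac1 these match the C/EBP-ATF response element (CARE), the type of site that ATF4 binds with a C/EBP partner, and in Psat1 and Trib3 only a variant of it. Psat1 lies at chr19:15904678-15947337, minus strand, and has 2 such windows. The one at chr19:15924623-15924872 holds neither CARE nor the variant and is not shown. The window shown, chr19:15925060-15925309, is upstream of the other RefSeq start and inside the longer gene span of GENCODE M21, where no exon is annotated. The Trib3 window, chr2:152344061-152344310 on the minus strand, also holds no annotated exon. For Asns (chr6:7693214-7693243, minus strand) and Chac1 (chr2:119351038-119351067, plus strand) 30 bases around the match are given. The Asns stretch lies inside the gene of GENCODE M21, which begins at 7693254, and 45 bases of the Asns window are annotated exon. Bases just after the RefSeq start occurred in an annotated transcript for Psat1 and Chac1, but not for Asns and Trib3.
Psat1: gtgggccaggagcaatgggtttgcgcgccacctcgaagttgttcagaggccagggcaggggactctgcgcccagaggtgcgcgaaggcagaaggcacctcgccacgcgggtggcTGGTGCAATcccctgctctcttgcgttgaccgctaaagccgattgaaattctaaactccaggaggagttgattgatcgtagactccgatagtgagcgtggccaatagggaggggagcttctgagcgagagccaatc
Trib3: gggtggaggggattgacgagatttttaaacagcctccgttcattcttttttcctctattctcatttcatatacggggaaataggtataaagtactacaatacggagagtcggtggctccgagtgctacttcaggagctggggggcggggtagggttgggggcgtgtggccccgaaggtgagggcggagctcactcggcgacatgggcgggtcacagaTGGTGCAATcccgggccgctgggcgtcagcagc
Asns: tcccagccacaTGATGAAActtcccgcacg
Chac1: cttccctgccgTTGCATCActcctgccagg

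The motif TGATGNAA, searched on both strands in the 250 bases before each start, was present in 2 of the 10 members. It lay 23 to 16 bases before the RefSeq start of Asns, inside the GENCODE M21 gene. On the other strand it lay 193 to 186 bases before the Chac1 start. Of all 32851 mouse windows of this length 3.45% held it. The variant TGNTGCAAT was searched after the sequences had been looked at, and 0.581% of all windows held it. It was present in 1 of the 2 Psat1 windows (136 to 128 bases before that start) and in Trib3 (33 to 25 bases before). The AP-1 motif TGANTCA, bound by Fos and Jun proteins, was found in the Ddit3 window alone (6.75% of all windows), and the E-box CACGTG in none (6.02%). These matches are descriptions of letters and were not tested as binding sites.

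In WT microglia the members differed widely in level. Per kilobase of exon, Phgdh was the highest at 68.1 ± 4.39 CPM per kb, followed by Atf4 at 45.7 ± 3.26, Ddit3 at 16.1 ± 2.27 and Shmt2 at 11.1 ± 0.953 (SD, n = 6). These 4 did not overlap each other in any WT mouse. Mthfd2 at 5.21 ± 1.25, Psph at 3.39 ± 0.300 and Psat1 at 2.73 ± 0.491 CPM per kb came next, each overlapping its neighbour among these 3. Asns at 0.482 ± 0.332, Trib3 at 0.291 ± 0.290 and Chac1 at 0.0863 ± 0.134 CPM per kb were at the edge of detection. The levels of Phgdh and Psat1, enzymes of consecutive steps, thus lay far apart in these cells, although 44.7% of the 25-base stretches of Phgdh mRNA also occur in other genes, mostly processed copies such as Gm7901 (at most 0.840 CPM in any mouse).

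Psat1, the second enzyme of serine synthesis, was at 10.6, 13.1, 9.07, 9.63, 13.2 and 14 CPM in WT F1, F2, M1, M2, M3 and M4. In Het-cKO mice it was at 10.8, 10.7, 13.7 and 8.25 CPM in F1 to F4 and at 4.94, 13.4 and 8.03 CPM in M1, M3 and M4. The 10 Homo-cKO mice ranged from 13.2 CPM in F2 through a median of 21.0 CPM to 64.4 CPM in M4. Of these 10 mice 9 were above every WT and Het-cKO mouse, and F2 lay within their range. A placing of at least 9 of 10 above all others was reached by 0.961% of the 12908 genes tested, a number given for scale because this contrast chose the gene. The means were 11.6 ± 2.09 CPM in WT, 9.98 ± 3.14 CPM in Het-cKO and 23.9 ± 14.8 CPM in Homo-cKO mice.

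The log2 fold change of Psat1 between Homo-cKO and WT mice was 1.06 (SE 0.275), a 2.08-fold difference, and between Homo-cKO and Het-cKO mice 1.23 (SE 0.266), or 0.967 without M4. M4 was 2.33 times as high as the next mouse, F4 at 27.6 CPM. Without M4 the log2 fold change against WT was 0.71, and without M4 and F4 it was 0.65. The difference was larger without the 4 mice with high Fos, at 1.35, and it was 0.57 with the 6 mice of the middle number range alone and 1.54 with the 4 of the higher range. Het-cKO and WT mice did not differ by the test in Psat1 (log2 fold change -0.18, interval of 2 SE from -0.78 to 0.42, adjusted p = 0.93 by the quasi-likelihood test of edgeR, adjusted over all genes tested by the method of Benjamini and Hochberg). That comparison called none of the 12908 genes (percent called 0), with 998 (7.73%) at an unadjusted p under 0.05, and DESeq2 called 3. Of the 9 members tested 1, Psph, had an unadjusted p under 0.05 there.

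**Figure D1:**
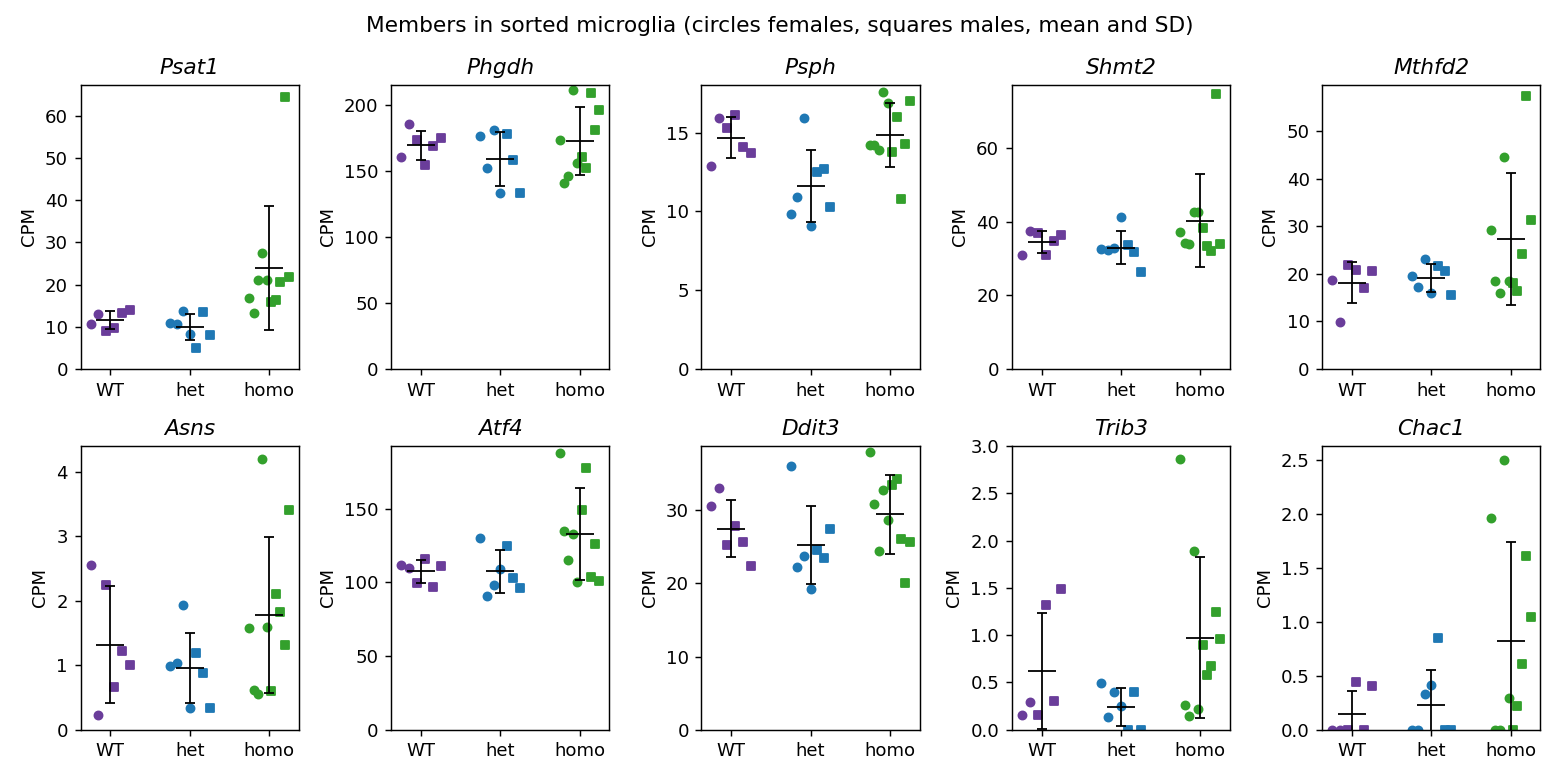
CPM (y axis, linear, from 0) of the 10 members in each mouse by genotype, with the mean and SD as bars; circles are females and squares are males. Psat1 stands apart in 9 of 10 Homo-cKO mice, with M4 at 64.4 CPM, whereas the other members overlap between genotypes.

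The neighbouring enzymes of serine synthesis did not show the pattern of Psat1. Phgdh, which makes the substrate of Psat1, was at 169 ± 10.9 CPM in WT (median 171) and 172 ± 26 CPM in Homo-cKO mice (median 166), and 3 of 10 Homo-cKO mice were above and 3 below the WT range. Its log2 fold change was 0.03 (SE 0.0934, interval -0.16 to 0.22, adjusted p = 0.87 by edgeR). Psph, which uses the product of Psat1, was at 12.9 to 16.1 CPM in WT and 10.8 to 17.6 CPM in Homo-cKO mice, a log2 fold change of 0.02 (SE 0.119, interval -0.22 to 0.25, adjusted p = 0.96 by edgeR). For scale, Psat1 was at 1.06 (interval of 2 SE from 0.51 to 1.61), or 0.712 without M4. Because that value chose the list, setting Phgdh and Psph beside it is a description. Psph shares 6.07% of its 25-base stretches with other genes, nearly all with the overlapping Cct6a, a chaperonin gene on the other strand at 148 ± 14 CPM in WT mice. The library type does not keep strand, so a share of Cct6a reads in the Psph value could not be told apart.

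The mitochondrial folate enzymes lay between. Mthfd2 was at 18.7, 9.97, 21.9, 20.8, 17.1 and 20.6 CPM in the WT mice (F1, F2 and M1 to M4). In Homo-cKO mice it ranged from 16 to 57.4 CPM, and 5 of 10 were above all other mice, led by M4 (57.4), F4 (44.7) and M5 (31.3). The other 5 lay inside the WT and Het-cKO range. Its log2 fold change was 0.64 (SE 0.243), with an unadjusted p = 0.015 and an adjusted p = 0.087 by edgeR, so it was not called. DESeq2 gave an adjusted p of 0.044, and without the 4 mice with high Fos edgeR gave a log2 fold change of 0.87 and an adjusted p of 0.027. Shmt2 was at 30.9 to 37.5 CPM in WT and 32.0 to 74.8 CPM in Homo-cKO mice, with a median of 35.8 that lay inside the WT range. Its log2 fold change of 0.22 (SE 0.142, adjusted p = 0.33 by edgeR) became 0.05 without M4.

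Atf4, which encodes the central transcription factor of the response, was at 96.7 to 116 CPM in WT mice. Its 4 highest values of all 23 mice were in Homo-cKO F1 (188 CPM), M2 (178), M1 (149) and F2 (135), the same 4 mice that had high Fos. The other 6 Homo-cKO mice were at 100 to 133 CPM, overlapping both other genotypes. The log2 fold change was 0.30 (SE 0.124, unadjusted p = 0.023, adjusted p = 0.12 by edgeR), and with the mean of the immediate-early genes as a covariate it was -0.02. Psat1 had its 4 highest values in other Homo-cKO mice, M4, F4, M5 and F3, and the 4 mice with the most Atf4 mRNA had 13.2 to 16.8 CPM of Psat1, the 4 lowest of the genotype. ATF4 protein and its translation were not measured.

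**Figure D2:**
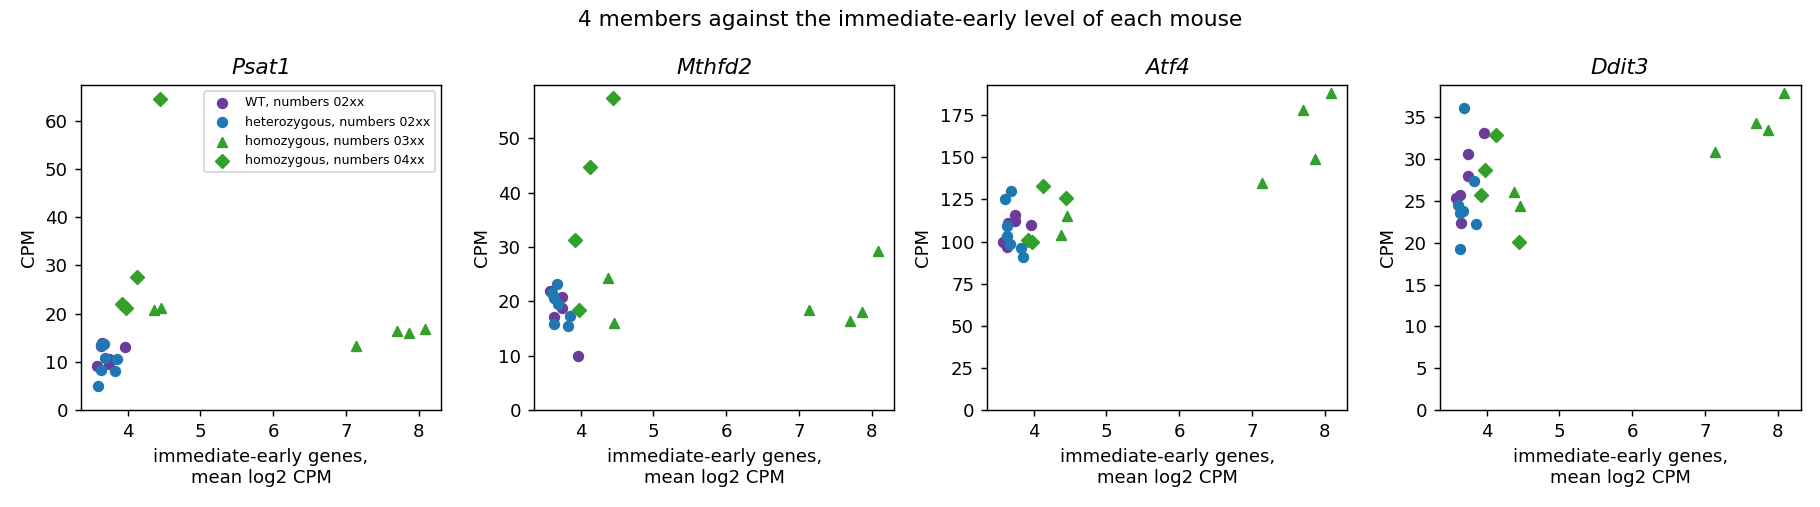
CPM of Psat1, Mthfd2, Atf4 and Ddit3 (y axes, linear, from 0) against the mean log2 CPM of immediate-early genes in the same mouse (x axis); colours are genotypes and shapes are animal-number ranges. The 4 Homo-cKO mice at the right hold the highest Atf4 values and the lowest Psat1 values of the homozygous genotype, whereas the highest Psat1 and Mthfd2 values lie at the left.

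Ddit3, which encodes CHOP, was at 22.4 to 33.1 CPM in WT, 19.3 to 36.1 CPM in Het-cKO and 20.1 to 37.9 CPM in Homo-cKO mice, so the 3 genotypes overlapped throughout. The log2 fold change between Homo-cKO and WT was 0.08 (SE 0.126, interval -0.18 to 0.33, adjusted p = 0.75 by edgeR), and its sign turned to -0.09 without the mice with high Fos. Homo-cKO M4, the mouse with the most Psat1, had the least Ddit3 of its genotype. Of the 25-base stretches of Ddit3 7.48% occur in other gene records, 4.26% in a second record of the same name that overlaps it and 2.26% in Mars, which overlaps it on the other strand.

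Asns, Trib3 and Chac1 rested on few reads. Asns had 3 to 34 counts in WT mice and 7 to 69 in Homo-cKO mice, 0.220 to 2.55 and 0.560 to 4.21 CPM, and F4 and M5 were the 2 highest mice. Its log2 fold change was 0.42 (SE 0.499, interval -0.58 to 1.42, adjusted p = 0.64 by edgeR), an interval that does not exclude a doubling. Trib3 was at 0.150 to 1.49 CPM in WT, 0 to 0.497 CPM in Het-cKO and 0.140 to 2.86 CPM in Homo-cKO mice, with F1 (2.86) and F4 (1.89) above all others. The log2 fold change against WT was 0.62 (SE 0.687, adjusted p = 0.61 by edgeR). Chac1 had too few counts for the test. It was at 0 counts in 4 of 6 WT mice and at 6 in the other 2, and at 0 in 4 of 7 Het-cKO mice with at most 10 in the rest, whereas Homo-cKO F4, F1, M4 and M5 had 41, 26, 22 and 14 counts. The other 6 Homo-cKO mice had 0 to 9 counts. Fitted with no filter on low counts, its log2 fold change against WT was 2.58 (SE 1.11) with an adjusted p of 0.19 by edgeR.

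Over the members, 0 of the 8 tested beside Psat1 were called between Homo-cKO and WT mice, where 12.7% of all genes were called (5.66% higher and 7.09% lower). At an unadjusted p under 0.05, Mthfd2 and Atf4 passed, 2 of 8, against 27.1% of all genes. All 8 log2 fold changes were above 0, as were 52.0% of those of all genes, and their median was 0.26 against 0.01 over all genes. DESeq2 called 1 of the 8, Mthfd2.

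Against Het-cKO mice, 2 of the 8 were called, where 22.7% of all genes were (11.1% higher). All 8 lay above 0, as did 49.7% of all genes, and 5 of 8 had an unadjusted p under 0.05, as did 35.7% of all genes. Psph was at 11.6 ± 2.30 CPM in Het-cKO and 14.9 ± 2.03 CPM in Homo-cKO mice, a log2 fold change of 0.36 (SE 0.115, adjusted p = 0.027 by edgeR). The WT mice were at 14.7 ± 1.30 CPM of Psph. Het-cKO against WT gave -0.34 (SE 0.130, unadjusted p = 0.015, adjusted p = 0.56 by edgeR), which was not called. Trib3 was at 0.240 ± 0.201 CPM in Het-cKO and 0.974 ± 0.850 CPM in Homo-cKO mice, a log2 fold change of 1.98 (SE 0.697, adjusted p = 0.042 by edgeR). No Het-cKO mouse had more than 6 counts of Trib3, so it passed the low-count filter only through WT and Homo-cKO mice. Its call is therefore a description. Both comparisons of the Homo-cKO mice share those mice and are not independent. The call of Psph ended without any of Het-cKO F1, F2, F4 or M4 (adjusted p 0.053 to 0.069), and that of Trib3 without any of Het-cKO F2, F4, M1 or M4 or Homo-cKO F1, F4, M4 or M5 (adjusted p 0.050 to 0.11). Without F4 and M4 neither was called, as Psph had an adjusted p of 0.058 and Trib3 fell under the filter on low counts. Atf4 was at 0.31 (SE 0.117, adjusted p = 0.059 by edgeR; 0.035 by DESeq2).

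**Figure D3:**
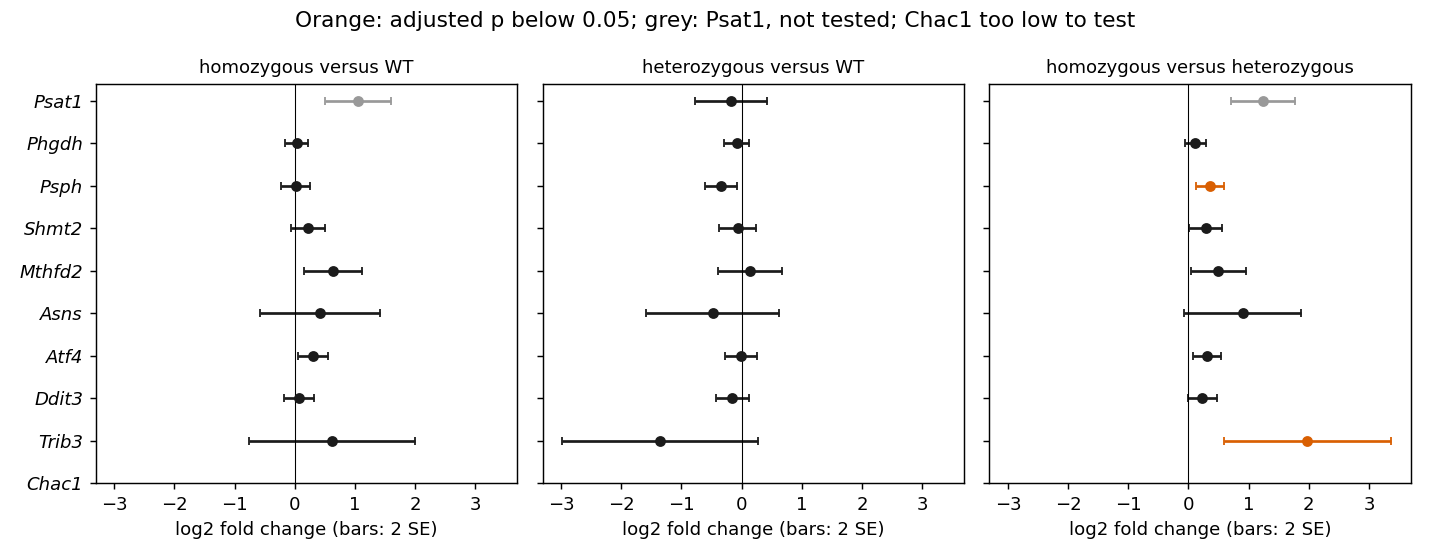
Log2 fold change (x axis) of each member in the 3 comparisons, with bars of 2 SE either side; orange marks an adjusted p below 0.05 by edgeR, grey marks Psat1 where it was not tested, and Chac1 was too low to be fitted. Psph and Trib3 between Homo-cKO and Het-cKO mice are the 2 orange points.

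The members were next compared within the homozygous genotype, between the 4 mice of the higher and the 6 of the middle animal-number range. What the ranges stand for is not given in the labels. Psat1 was at 33.8 ± 20.6 CPM (21.2 to 64.4) in the higher and 17.4 ± 3.06 CPM (13.2 to 21.2) in the middle range, a log2 difference of 0.91 (SE 0.271), which was 0.434 without M4. Mthfd2 was at 38.0 ± 16.8 against 20.4 ± 5.25 CPM, a log2 difference of 0.89 (SE 0.272, unadjusted p = 0.0068, adjusted p = 0.35 by edgeR). Shmt2 differed by 0.47 and Asns by 1.15 in the same direction, with unadjusted p of 0.021 and 0.045 and adjusted p of 0.45 and 0.52 by edgeR; without M4 Shmt2 differed by 0.165, and without F4 Asns by 0.697. Atf4 and Ddit3 pointed the other way, at -0.33 and -0.23 (adjusted p 0.58 and 0.69 by edgeR). None of these 8 members passed the adjustment, and 1 of 12908 genes did (0.00775%); 3 of the 8 had an unadjusted p under 0.05, against 9.42% of all genes.

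For each of the 9 members other than Psat1 the highest of the 23 mice was a Homo-cKO mouse, as it was for 45.3% of all genes. Homo-cKO F4 was among the 3 highest of the 23 mice for 8 of the 10 members, as it was for 11.1% of all genes. M5 was so for 5 members (16.8% of genes), and M4 (15.5%) and F1 (15.7%) for 4 each. The counts of F4, M5 and M4 include Psat1, which chose the list. Those of F4, F1 and M4 include Chac1, which was not among the genes tested. These counts are given as a description. Within the 10 Homo-cKO mice, log2 CPM of Psat1 and Mthfd2 had a Pearson r of 0.80 and a Spearman rho of 0.59 (permutation p = 0.0044 and 0.08, adjusted over 20 relations 0.088 and 0.27), and r was 0.61 without M4 and F2, the mice farthest from the median of Psat1. Within the middle range of 6 mice it was 0.08. Psat1 and Shmt2 had an r of 0.88 and a rho of 0.41 (permutation p = 0.016 and 0.25, adjusted 0.11 and 0.43), which dropped to 0.32 without M4 and F2, so it rested on those mice. Psat1 and Atf4 had an r of -0.29 and a rho of -0.53 (permutation p = 0.45 and 0.12, adjusted 0.68 and 0.33). Psat1 and Ddit3 had an r of -0.73 and a rho of -0.64 (permutation p = 0.017 and 0.054, adjusted 0.11 and 0.27). Their r was -0.46 without M4 and F2 and -0.64 within the middle range of 6 mice. With the mean of the astrocyte markers Psat1 had an r of 0.68 and a rho of 0.68 (permutation p = 0.034 for each, adjusted 0.13 and 0.27), and r was 0.88 without M4 and F2. It was 0.22 within the middle range of 6 mice and 0.47 after the number range was removed. The astrocyte mean, which is also the astrocyte covariate, covers only the 4 tested markers, Slc1a3, Gfap, Slc1a2 and Aldoc. Gfap was at 0 CPM in 3 Homo-cKO mice and Slc1a2 averaged 1.16 CPM, so both were near the edge of detection. With the mean of the immediate-early genes r was -0.58 and rho -0.66 (permutation p = 0.038 and 0.044, adjusted 0.13 and 0.27), and r was -0.87 without M4 and F2. It was -0.78 within the middle range and -0.22 after the number range was removed. The 4 mice with high Fos form a cluster apart in this relation. None of the 20 relations passed the adjustment.

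For none of the 8 members tested beside Psat1 was a difference of the genotype effect between males and females called, and no gene was called in that test (percent called 0; 4.99% of genes had an unadjusted p under 0.05). The interaction of Psat1 was 0.51 on the log2 scale (SE 0.545), and its log2 fold change was 0.76 (SE 0.443) in females and 1.28 (SE 0.349) in males, with 2 WT females and M4 among the males. Trib3 had a log2 fold change of 2.24 (SE 1.21) in females and 0.08 (SE 0.805) in males, an interaction of -2.15 (SE 1.43, unadjusted p = 0.15 by edgeR).

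After genotype and sex were removed, the 5 genes whose log2 CPM followed Psat1 most closely over the 23 mice were Gcnt2 (r = 0.851), B230219D22Rik (0.816), C1qbp (0.809), Eif4ebp1 (0.795) and Rab27a (0.792). All 5 had their highest Homo-cKO value in M4, the mouse that also held the most Psat1. Eif4ebp1, which encodes a repressor of cap-dependent translation and is a known ATF4 target, was at 19.1 to 27.1 CPM in WT and 21.1 to 47.4 CPM in Homo-cKO mice. For Asns the 5 closest genes were Ralgds, Zgrf1, Plaur, Ssu72 and St5. These likenesses are descriptions over 23 libraries and carry no test.

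The wider pathways were compared between Homo-cKO and WT mice, where 12.7% of all genes were called (5.66% higher and 7.09% lower). Of 18 tested genes of folate and glycine metabolism, 1 rose, Mtrr, which keeps methionine synthase active (log2 fold change 0.44, SE 0.141, adjusted p = 0.042 by edgeR), 9 lay above and 9 below 0, and their median was -0.01 (0.01 over all genes). Of 11 amino acid transporters none rose and 1 fell, Slc3a2, the heavy chain shared by several exchangers, from 599 ± 47.5 to 488 ± 48.8 CPM (-0.30, SE 0.0796, adjusted p = 0.013 by edgeR). Of 19 cytosolic aminoacyl-tRNA synthetases, a gene class that ATF4 is known to raise, 14 lay above 0 but none rose and Qars fell (-0.23, SE 0.0719, adjusted p = 0.036 by edgeR). Of 15 genes of the eIF2 machinery 1 rose, Eif2s1, which encodes eIF2alpha itself (0.28, SE 0.0827, adjusted p = 0.025 by edgeR). Of 11 mitochondrial chaperones and proteases 1 fell, Oma1, the protease that relays mitochondrial stress to eIF2alpha (-0.25, SE 0.0827, adjusted p = 0.048 by edgeR). Several of these calls depended on single mice: with each of the 23 left out in turn, Oma1 stayed called in 6, Mtrr in 10, Qars in 15, Eif2s1 in 20 and Slc3a2 in 22. Mtrr lost its call without any 1 of the 6 WT mice, and Slc3a2 without WT M1 alone.

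Among 15 tested further ATF4 targets 3 rose and none fell, beside the 12.7% of all genes called. Atf3, an ATF family repressor that is also an immediate-early gene, was at 15.6 to 20.1 CPM in WT and 22.4 to 74.8 CPM in Homo-cKO mice, with no overlap (log2 fold change 0.94, SE 0.202, adjusted p = 0.0037 by edgeR; 0.674% of all genes had every Homo-cKO mouse above every WT mouse). Ppp1r15a, which encodes the GADD34 subunit that reverses eIF2alpha phosphorylation, was at 28.8 ± 4.54 CPM in WT and 104 ± 101 CPM in Homo-cKO mice (1.86, SE 0.503, adjusted p = 0.016 by edgeR), with 24.9 to 275 CPM in the latter and a log2 difference of -2.25 (adjusted p = 0.32) between their higher and middle number ranges. Eif4ebp1 rose by 0.40 (SE 0.127, adjusted p = 0.037 by edgeR). Sesn2, Nupr1, Cebpb and Herpud1 had log2 fold changes of 0.09, 0.28, 0.06 and -0.12 and were not called. Of the 15 targets 9 lay above and 6 below 0, with a median of 0.09. Ddit4 (-0.80, SE 0.317, unadjusted p = 0.018, adjusted p = 0.10 by edgeR) and Atf5 (-0.54, SE 0.318, adjusted p = 0.28 by edgeR) lay lowest and were not called. The count of 3 was 1 with limma-voom and 1 with the immediate-early covariate. Ppp1r15a was not called without the 4 mice with high Fos. With each of the 23 mice left out in turn, Atf3 and Ppp1r15a stayed called in 23 and Eif4ebp1 in 17. Neither Atf3 nor Ppp1r15a was called with the immediate-early or the astrocyte covariate. Eif4ebp1 lost its call with limma-voom, the fit of 2 genotypes, the middle number range alone, and without F4 and M4.

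The genes of the other unfolded-protein branches, which answer to IRE1 and ATF6 and include the chaperones of the endoplasmic reticulum, lay the other way. All 19 had a log2 fold change below 0, 7 fell and none rose, with a median of -0.27; over all genes 52.0% lay above 0, 7.09% were called lower, and the median was 0.01. Their summed level was 6710 to 9680 CPM in WT and 6310 to 7850 CPM in Homo-cKO mice, so it overlapped, and the summed microglial markers given above were lower in the same mice. Creld2 went from 102 ± 10.6 CPM in WT to 73.9 ± 9.31 CPM in Homo-cKO mice (-0.49, SE 0.0758, adjusted p = 0.00029 by edgeR), and 9 of 10 Homo-cKO mice were below every WT mouse. Edem1, which helps clear misfolded glycoproteins, fell by 0.44 on the log2 scale (SE 0.104, adjusted p = 0.0068 by edgeR), Dnajb11, a co-chaperone, by 0.28 (adjusted p = 0.0073) and Sel1l, of the retrotranslocation complex, by 0.41 (adjusted p = 0.011). Hspa5, the main chaperone BiP, was at -0.30 and was not called (SE 0.110, adjusted p = 0.074 by edgeR). The count of 7 was 8 without the 4 mice with high Fos, 3 with the higher number range alone, 3 without WT M1, and 1 with the mean of astrocyte markers as a covariate, with the median between -0.33 and -0.21 across these settings and each library left out.

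**Figure D4:**
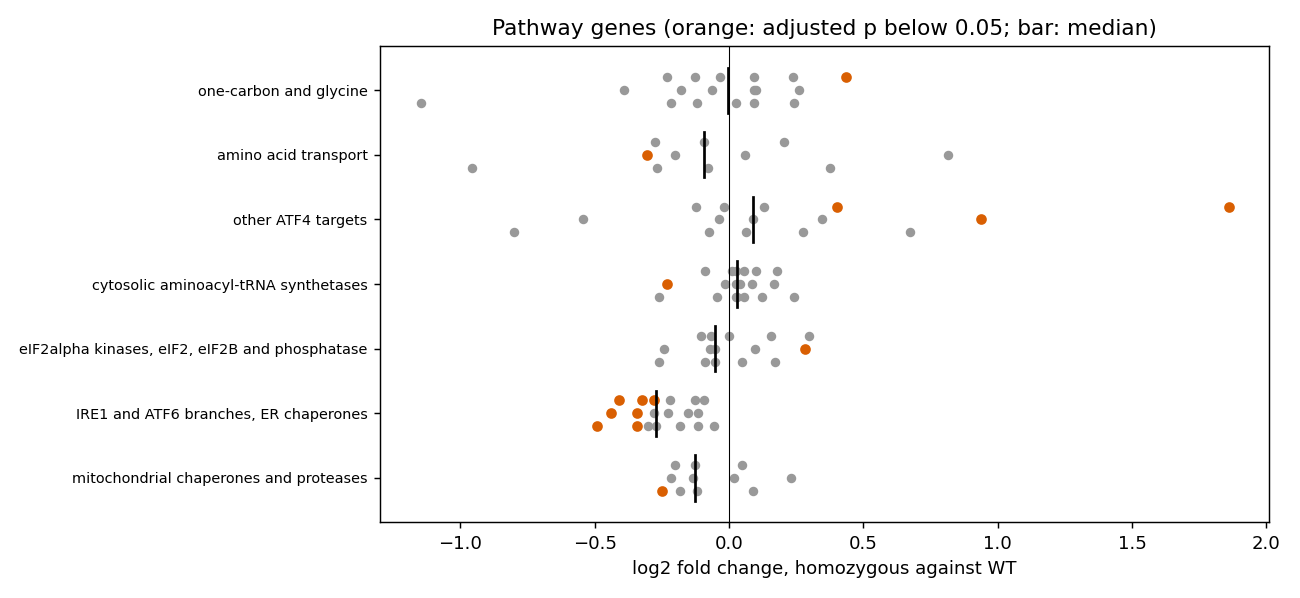
Log2 fold change between Homo-cKO and WT mice (x axis) of each tested gene of 7 pathway lists (rows); orange marks an adjusted p below 0.05 by edgeR and the bar is the list's median. The 19 genes of the IRE1 and ATF6 branches all lie left of 0, and the ATF4 targets spread to both sides with Atf3, Ppp1r15a and Eif4ebp1 in orange at the right.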

How the data were processed

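The deposited table holds an expected count per gene and mouse, estimated by the authors with RSEM from 50-base single-end reads against mm10, and the labels also name DESeq2. The libraries were made with SMARTer v4 and Nextera XT. Of 43411 gene identifiers 42929 matched a symbol, and 82.2% of the values were whole; all were rounded. Genes passing filterByExpr by genotype (12908) were scaled by TMM and fitted in edgeR 4.0.16 with genotype and sex, and tested by quasi-likelihood with Benjamini-Hochberg adjustment over all of them; called means adjusted p below 0.05. CPM uses TMM library sizes, log2 CPM a prior count of 2, and CPM per kb the union of GENCODE M21 exons. Alternatives used DESeq2 1.42.0, limma 3.58.1 (voom) and other scalings, filters, samples and covariates. Permutation tests of correlations were two-sided. The study's methods removed 1 WT and 1 heterozygous library for quality.

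The members and all gene lists were chosen with earlier results of these data known. Named from each list were up to 4 genes with the smallest p among those called between homozygous and WT mice, all 10 members, and the 5 genes most like Psat1 and Asns. Hspa5, Sesn2, Nupr1, Cebpb, Herpud1, Ddit4 and Atf5 were added after their values were seen. Scripts were tested on simulated data. Counts cover 10812969 to 16734846 per library. Dars, Fgf21 and Ppp1r15b were listed at 0 in every mouse, as were the markers Cldn5 and Mrc1 and the immediate-early genes Ier5 and Btg2. Replicates were separate mice. Markers of other cells between homozygous and WT mice: oligodendrocytes 2 of 6 lower, neurons 5 of 6 lower, endothelial cells and pericytes 2 of 3 lower, border macrophages 0 of 5, monocytes and neutrophils 1 of 4 higher, and immediate-early genes 13 of 16 higher. R 4.3.3, Python 3.11.15 and matplotlib 3.10.9 were used.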

Additional observations from a re-analysis of the deposited data

Results flagged for a closer look

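Homo-cKO M4 stood apart from the other 9 Homo-cKO mice in 2 members. Psat1 was at 64.4 CPM in M4 and at 27.6 CPM in the next mouse, a gap of 0.719 of the whole range against a Dixon critical value of 0.466 for 10 samples. Shmt2 was at 74.8 CPM in M4 and at 42.7 CPM in the next mouse, a gap of 0.750 of the range. These were 2 of 30 groups examined (10 members in 3 genotypes), and chance flags about 1 in 20. That rate does not cover Psat1, whose level in Homo-cKO mice chose the list, so its flag is a description. Without M4 the log2 fold change between Homo-cKO and WT mice was 0.712 for Psat1 and 0.049 for Shmt2.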

How the results depend on the processing

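The library totals limit Asns, Trib3 and Chac1, which rest on few counts. Between Homo-cKO mice and the rest, number range and genotype cannot be told apart. No paired analysis was possible because every mouse has an animal number of its own and replicate numbers only name mice within a group. No scaling moved the median of all genes by more than 0.1. The setting without F4 and M4 was chosen after seeing the data; the rest were planned. Causes of the changes below were not tested.

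Between Homo-cKO and WT mice 0 of 8 members were called. The count was 1 with DESeq2 (Mthfd2), without F1, F2, M1 and M2 (Mthfd2), with the middle number range alone (Atf4), with the higher range alone (Mthfd2) and with the immediate-early covariate (Mthfd2), and 2 with the astrocyte covariate (Shmt2 and Mthfd2). It was 0 without each mouse in turn. Between Homo-cKO and Het-cKO mice the count of 2 was 1 with limma-voom, with no filter on low counts, with only the 2 genotypes in the fit, without F1, F2, M1 and M2, with the middle range alone and with the immediate-early covariate (Psph, Atf4, Psph, Mthfd2, Atf4 and Mthfd2 in that order), 3 with DESeq2 (Psph, Atf4 and Trib3), 3 with the higher range alone (Psph, Shmt2 and Mthfd2), 4 with the astrocyte covariate, 0 without F4 and M4, and 0 to 3 without each mouse in turn (0 without Het-cKO F2, F4 or M4). Trib3 fell under the filter in 4 of these settings: the fit of 2 genotypes, the middle range alone, and those without F1, F2, M1 and M2 or without F4 and M4. Over all genes, the 1645 called between Homo-cKO and WT mice became 1062 without F1, F2, M1 and M2, 806 with the higher range alone, 903 with the immediate-early and 804 with the astrocyte covariate, and 1060 without WT M1, and the 2936 between Homo-cKO and Het-cKO mice became 1898, 1433 and 1660 in the first 3 of these.

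Log2 fold changes that turned sign against WT were those of Ddit3 (-0.092 without F1, F2, M1 and M2, -0.075 with the higher range alone, -0.139 with the immediate-early covariate and -0.105 with the astrocyte covariate), of Phgdh, Psph and Asns with the middle range alone (-0.047, -0.086 and -0.113, with Shmt2 at 0), of Atf4 with the immediate-early covariate (-0.016), of Psph with the astrocyte covariate (-0.001), and of Phgdh and Psph without F4 and M4 (-0.015 and -0.006). In the other comparisons they were Atf4 between Homo-cKO and Het-cKO mice with the immediate-early covariate (-0.011), Psat1 and Shmt2 between Het-cKO and WT mice with the astrocyte covariate (0.065 and 0.080), and the sex interaction of Asns with limma-voom (-0.426). Without each mouse in turn, Phgdh ran from -0.009 to 0.064 and Psph from -0.034 to 0.065 between Homo-cKO and WT, Mthfd2 from -0.009 to 0.214 and Atf4 from -0.067 to 0.021 between Het-cKO and WT, and Trib3 from -0.195 (without F4) to 1.308 (without F1) between the number ranges. Psat1 ran from 0.712 to 1.119 between Homo-cKO and WT mice.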
